A study of Mus musculus with 2 samples.

Results

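The regions described here are 2 windows of 100 kb of the mouse genome (build mm9), chromosome 9 from 35100001 to 35200000 and chromosome 6 from 103500001 to 103600000. They were chosen by their reads, as the windows ranked 2 and 3 among the interior autosomal windows of a map of 5-hydroxymethylcytosine (5hmC). Together they hold 844 of the 13025343 listed cytosines, 677 in the chromosome 9 window and 167 in the chromosome 6 window. The window just above them, on chromosome 2 from 98500001, had 3145112 reads, and the one just below, on chromosome 11 from 117900001, had 69275. The reads of the 2 windows chose them, so their level is given as a description with no test.

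The map was made from E14, an established line of mouse embryonic stem cells, at passage 12, with no treatment named. The 2 libraries are replicates of 1 group, and nothing in the labels says that they came from separate cultures. After the 5hmC of the DNA had been glucosylated, it was cut with the enzyme AbaSI, which cleaves near the modified base, and the cut ends were sequenced. The table holds 1 read count per cytosine for both libraries together, so there is no error between replicates. Nothing is known here of cytosines that the table leaves out. Both samples described here are of this kind, with no control library among them, so the values have no background to be set beside.

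TET enzymes make 5hmC from 5-methylcytosine, and in embryonic stem cells most of it lies at CG dinucleotides, where both strands carry a cytosine. The other cytosines, followed by A, C or T, are together called CH. Mouse chromosomes carry long arrays of tandem repeats, the minor satellite at the centromere and the major satellite beside it, and most copies are missing from a genome assembly. Short pieces of such arrays can also be placed elsewhere in an assembly. Repeat and gene annotation of mm9 was not used here, so neither window is given a gene or a repeat family. Whether either segment is a piece of a satellite was not tested. How many copies in the cells give reads to one listed position is not known, so the read counts and the ratios to the flanks below are per listed position and not per copy.

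In each window nearly all reads lay on one short segment, defined, once the values had been seen, as the run of sites with 100 or more reads, each within 100 bp of the next, that held the most reads. On chromosome 9 the segment ran from 35112785 to 35113167, a length of 383 bp, and held 126519 of the window's 132895 reads, or 95.2%. On chromosome 6 it ran from 103599046 to 103599238, a length of 193 bp, and held 73827 of 74785 reads, or 98.7%. The segments were 0.383% and 0.193% of the length of their windows. The chromosome 6 segment lay 762 bp from the right edge of its window, and the chromosome 9 segment 12784 bp from the left edge of its own.

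The table names each cytosine's neighbour, which gives part of the letters of the segments. Of the bases of the chromosome 9 segment 45.2% were known in this way, and of the chromosome 6 segment 45.1%, with 0 clashes between overlapping dinucleotides. The stretches below are shown because the read counts, the repeated units and the likeness to other regions all rest on them. Capitals mark listed cytosines, C on the plus strand and G where the cytosine lies on the minus strand. Lower-case a, c, g and t are their neighbours and n is a base that no listed site gives. The plus strand of mm9 is written 5′ to 3′. The first line is chr9:35112825-35113040, which holds the 10 sites with the most reads of that window. The second is chr2:98506819-98507034, the best match in the chromosome 2 window.
Chromosome 9 segment: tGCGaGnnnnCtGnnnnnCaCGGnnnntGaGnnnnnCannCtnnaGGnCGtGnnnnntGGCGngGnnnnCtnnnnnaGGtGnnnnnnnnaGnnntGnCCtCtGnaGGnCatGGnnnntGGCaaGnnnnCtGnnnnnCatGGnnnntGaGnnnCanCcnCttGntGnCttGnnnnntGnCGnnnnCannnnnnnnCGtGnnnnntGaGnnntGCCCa
Chromosome 2 window: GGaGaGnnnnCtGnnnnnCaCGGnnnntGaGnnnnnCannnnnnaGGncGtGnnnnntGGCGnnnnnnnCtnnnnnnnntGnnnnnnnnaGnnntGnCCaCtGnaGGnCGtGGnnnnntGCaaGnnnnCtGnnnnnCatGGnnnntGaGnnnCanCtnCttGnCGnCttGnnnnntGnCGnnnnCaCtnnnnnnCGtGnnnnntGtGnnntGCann
Of the bases known in both stretches, 91.3% had the same letter, 95 in number. This place was chosen by how many listed sites shared dinucleotide and strand. Each such site brings equal letters, so the share is not separate evidence of likeness.

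The chromosome 6 segment holds a unit of 121 bp that begins again within it. The 3 lines give the first unit's start (chr6:103599045-103599116), the same stretch of the second unit (chr6:103599166-103599237) and its counterpart on the X chromosome (chrX:139917596-139917667).
Chromosome 6, first unit: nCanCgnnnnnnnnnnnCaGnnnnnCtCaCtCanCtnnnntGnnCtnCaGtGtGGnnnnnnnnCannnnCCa
Chromosome 6, second unit: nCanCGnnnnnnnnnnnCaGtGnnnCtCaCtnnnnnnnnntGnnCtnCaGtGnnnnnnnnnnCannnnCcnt
X chromosome: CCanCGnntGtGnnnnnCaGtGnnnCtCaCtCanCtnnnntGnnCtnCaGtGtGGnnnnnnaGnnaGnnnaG
Of 25 bases known in both units, 23 were the same letter. The second unit and the X stretch shared 24 of 26, and the first unit and the X stretch 29 of 31. The unit length and the X place were also chosen by sites listed alike, so these counts are not separate evidence of likeness.

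The windows stood far above their flanks in reads but not in sites. The chromosome 9 window had 132895 reads, and the 4 pieces of 100 kb in its 200 kb flanks had 13972, 6610, 8856 and 6014 from left to right. That is 15.0 times the flank mean of 8863. Its 677 sites were within the 577 to 960 of the flank pieces. The chromosome 6 window had 74785 reads against 639, 1160, 969 and 2150 in its flank pieces, or 60.8 times their mean of 1229.5. Its 167 sites were within the flanks' 95 to 227. The excess of the whole windows was thus one of mean reads per site. The mean was 196.3 against 12.3 in the flanks of chromosome 9 and 448 against 8.35 in those of chromosome 6. The median was the same in window and flanks, 9 on chromosome 9 and 6 on chromosome 6.

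Outside the segments the windows had reads at or below the level of their flanks. The chromosome 9 window without its segment had 6376 reads on 568 sites. Both values lay at the low end of the flank pieces, the reads within their range and the sites just under the lowest, and the reads were 0.719 times the flank mean. The mean was 11.2 reads per site. The chromosome 6 window without its segment had 958 reads on 117 sites, both within the range of the flank pieces, and 0.779 times the flank mean of reads. Its mean was 8.19 reads per site.

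Among 20037 interior autosomal windows with at least 100 sites, the chromosome 9 window without its segment was at percentile 51.7 by reads, against rank 2 with it. The chromosome 6 window without its segment was at percentile 4.83 by reads and 4.62 by sites, so it lies in a stretch with few listed sites. In the share of reads on a single site, the chromosome 6 window ranked 1 of the 20037, with 43.8% on the CG at 103599170, and the chromosome 9 window 495 with 7.81%.

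**Figure D1:**
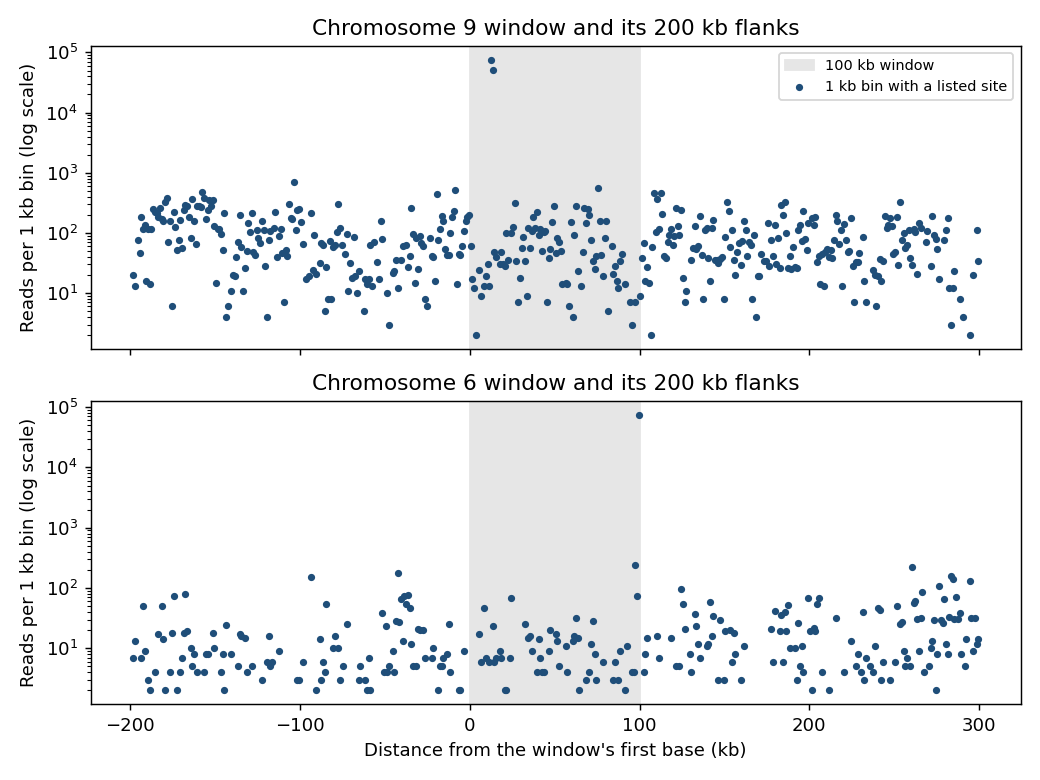
Reads per 1 kb bin (log scale) against the distance from the window's first base in kb, for the chromosome 9 window (top) and the chromosome 6 window (bottom), shaded, with 200 kb on each side; each point is a bin with a listed site, both libraries pooled. The 2 bins of the chromosome 9 segment (75679 and 50860 reads) and the 1 bin of the chromosome 6 segment (73893 reads) stand apart, while the highest other bin of the windows had 556 reads.

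Bins of 1 kb showed how narrow the signal was. On chromosome 9 the bin from 35112001 had 75679 reads on 68 sites and the next, from 35113001, had 50860 on 44. The third, from 35175001, had 556 reads on 13 sites, all CG. The other 98 bins of that window had a median of 34 reads, and the 400 flank bins a median of 55.5 and a maximum of 696, in the bin from 34996001. On chromosome 6 the bin from 103599001 had 73893 reads on 58 sites. The next were the bins from 103597001 with 243 and from 103598001 with 74 reads. The flank maximum was 226, in the bin from 103760001. The 3 bins with the segments ranked 5, 6 and 8 by reads among 1756156 autosomal bins with a site, whose median was 43 reads.

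By their definition the segments end where no site of 100 or more reads lies within the next 100 bp. In the chromosome 9 window the nearest site to the left of the segment lay 236 bp away and the nearest to the right 191 bp away. In the chromosome 6 window the neighbours lay 14 and 36 bp away. The left part of that segment held lower counts, at most 319 reads before the site at 103599160, which had 512. Outside the segments 2 sites in each window reached 100 reads. In the chromosome 9 window the highest of them had 221 reads, and in the chromosome 6 window 120. The highest site of the chromosome 9 flanks was the plus-strand CG at 35091851 with 133 reads, and that of the chromosome 6 flanks the CG at 103406416 with 73.

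CH cytosines were the main kind of site inside the segments. In the chromosome 9 segment 92 of 109 sites were CH, or 84.4% (95% interval 76.2 to 90.6), and in the chromosome 6 segment 45 of 50, or 90.0% (78.2 to 96.7). The rest of the chromosome 9 window had 43 CH sites of 568, or 7.57% (5.53 to 10.1), and its flanks 5.86% (5.03 to 6.78). The rest of the chromosome 6 window had 22 of 117, or 18.8% (12.2 to 27.1), and its flanks 8.49%, with pieces from 3.52% to 23.2%. All autosomes together had 5.99%. The segments held 68.1% and 67.2% of the CH sites of their windows. The lowest listed count was 2, and reads per kb were far higher in the segments than in the flanks, as given below. The part of that depth in the shares of CH sites and in the packing of sites was not tested.

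Listed sites were packed in the segments at 284.6 per kb on chromosome 9 and 259.1 per kb on chromosome 6. The flanks had 7.21 and 1.47 per kb. Reads came to 330337 and 382523 per kb, against 88.6 and 12.3 in the flanks. The class codes of the table also differed. Class 1CH, whose meaning is not stated, held 58.7% of the sites in the chromosome 9 segment and 60.0% in the chromosome 6 segment, against 2.46% and 3.40% in the flanks. Class 2CG was at 0 sites in both segments and made up 7.03% and 9.85% of the flank sites.

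Although CH sites were more numerous, CG sites had the higher median of reads. In the chromosome 9 segment the 17 CG sites had a median of 2349 reads and the 92 CH sites one of 294. CA led the CH contexts with 40 sites and a median of 623, followed by CT with 27 sites and a median of 294 and CC with 25 sites and a median of 153. In the chromosome 6 segment the 5 CG sites had a median of 994 reads and the 45 CH sites one of 49. In the flanks of chromosome 9 the medians of CG and CH sites were 10 and 5, and in those of chromosome 6 they were 6 and 5. CH reads made up 53.6% of the chromosome 9 segment and 42.0% of the chromosome 6 segment. In the chromosome 6 window the share was 41.6%, and 74.1% without its single highest site, a CG.

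The 10 highest sites of the chromosome 9 window were 3 CA and 7 CG. The highest was the plus-strand CA at 35112933 with 10384 reads. The next, a minus-strand CA at 35112955, lay 22 bp to its right and had 10200 reads, a ratio of 1.02. Both are of class 1CH and not of 2CH, the class whose sites are mostly listed as pairs on opposite strands. They ranked 65 and 67 among all listed sites.

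The CG dyad at 35113019 and 35113020 came next with 9239 reads on the plus and 7733 on the minus strand. The dyad at 35112873 and 35112874 had 5212 and 7204. The minus strand at 35113004 had 6898, the plus strand at 35112845 had 4895, the CA at 35112936 had 3823 and the CG at 35112885 had 2574. The 10 highest held 51.3% of the reads of the window. In the 100 kb pieces of its flanks the 10 highest of each held 5.48%, 11.4%, 8.54% and 8.91%, from left to right. The 5 highest held 33.7% (33.4 to 33.9).

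The chromosome 6 window rested on fewer sites. The plus-strand CG at 103599170 had 32783 reads, 43.8% of the window, and ranked 17 among all listed sites. Its minus-strand partner at 103599171 had 18 reads, a difference of 1821-fold. A minus-strand CA at 103599238 had 12365 reads, and the plus-strand CG at 103599161, 9 bp to the left of the highest site, had 8681. Then came the CA at 103599207 with 6373, the CA at 103599167 with 5449 and the CA at 103599183 with 1917.

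The remaining 4 of the 10 highest had 994 reads (the minus-strand CG at 103599162), 770 (the CT at 103599210), 738 (the CC at 103599234) and 727 (the CA at 103599213). The 5 highest sites held 87.8% (87.5 to 88.0) of the reads. Of the 50 sites of the segment 28 were under 100 reads, against 14 of 109 in the chromosome 9 segment, so the counts within the chromosome 6 segment were the more uneven.

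**Figure D2:**
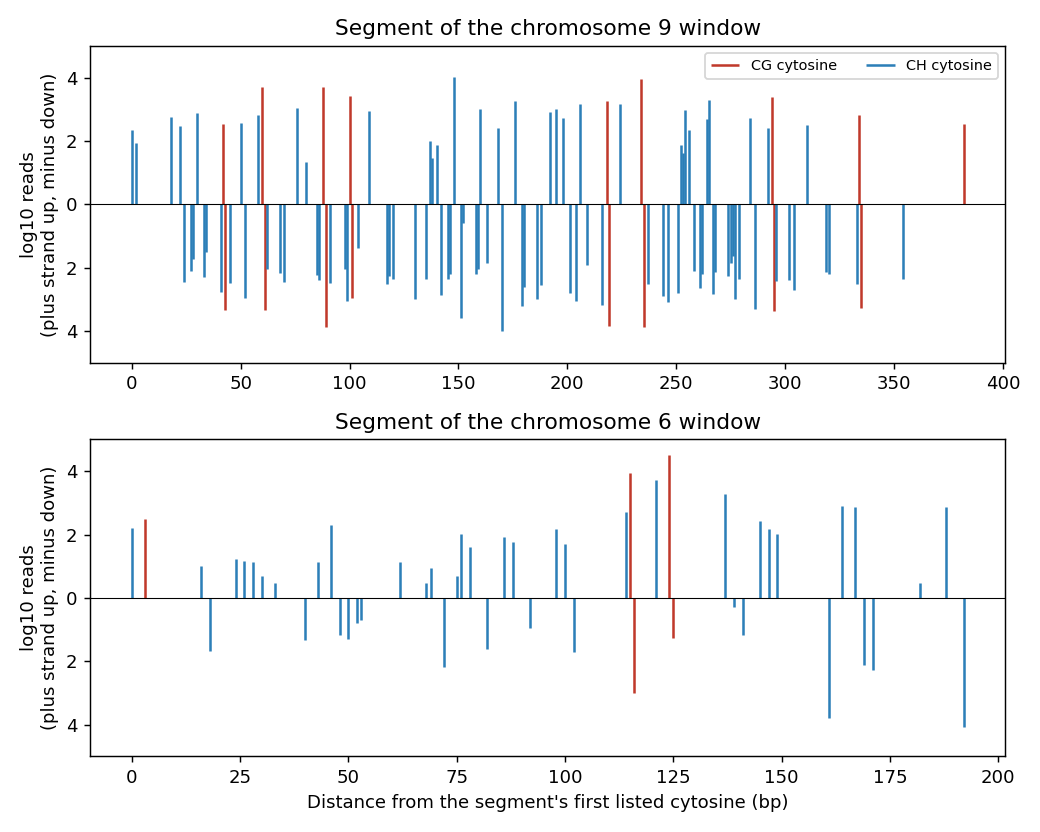
Reads at each listed cytosine of the chromosome 9 segment (top) and the chromosome 6 segment (bottom) as log10 reads, plus strand upward and minus strand downward, against the distance in bp from the segment's first listed cytosine; red lines are CG and blue lines CH cytosines. On chromosome 9 the 10 highest sites lie on both strands between 60 and 235 bp from the first site, while on chromosome 6 the highest sites (32783, 12365 and 8681 reads) lie in the right part.

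The strands were unequal on chromosome 6. Of the reads of that segment 72.3% were on the plus strand. In the chromosome 6 window the share was 72.0% (71.7 to 72.3), and without the single highest site it was 50.1%. The rest of the window had 49.3%. On chromosome 9 the plus strand held 36.7% of the segment's sites (27.7 to 46.5) and 44.5% of its reads, and 49.8% of the sites in the rest of the window.

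Within CG dyads of the chromosome 9 segment, 8 of 9 were listed on both strands, with counts that differed by 1.01-fold to 6.48-fold. The largest difference was at 35112827 and 35112828, with 336 and 2176 reads. In the rest of that window 35.7% of 387 dyads were listed on both strands, and in its flanks 36.3% of 1994. The chromosome 6 segment had 3 dyads, 2 of them on both strands, with 8681 and 994 reads in one and 32783 and 18 in the other. The rest of that window had 8 of 87 on both strands, or 9.20%, and its flanks 14.7%. The part of the greater read depth of the segments in these shares was not tested.

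The letters of each segment repeat. A site was said to recur at an offset when the same dinucleotide was listed on the same strand that many bases to the right. Only offsets with 10 or more sites that could recur were ranked. In the chromosome 9 segment 23 of the 47 sites that could recur at 234 bp did so, or 48.9%. Offsets of 116, 58 and 118 bp followed with between 24.7% and 25.6%. In the chromosome 6 segment 12 of 19 sites recurred at 121 bp, or 63.2%, and the next offset, 10 bp, had 22.9%. The median over these offsets was 2.86% and 2.78%. At 234 bp the chromosome 9 segment thus holds less than 2 full units, and the chromosome 6 segment less than 2 units of 121 bp.

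**Figure D3:**
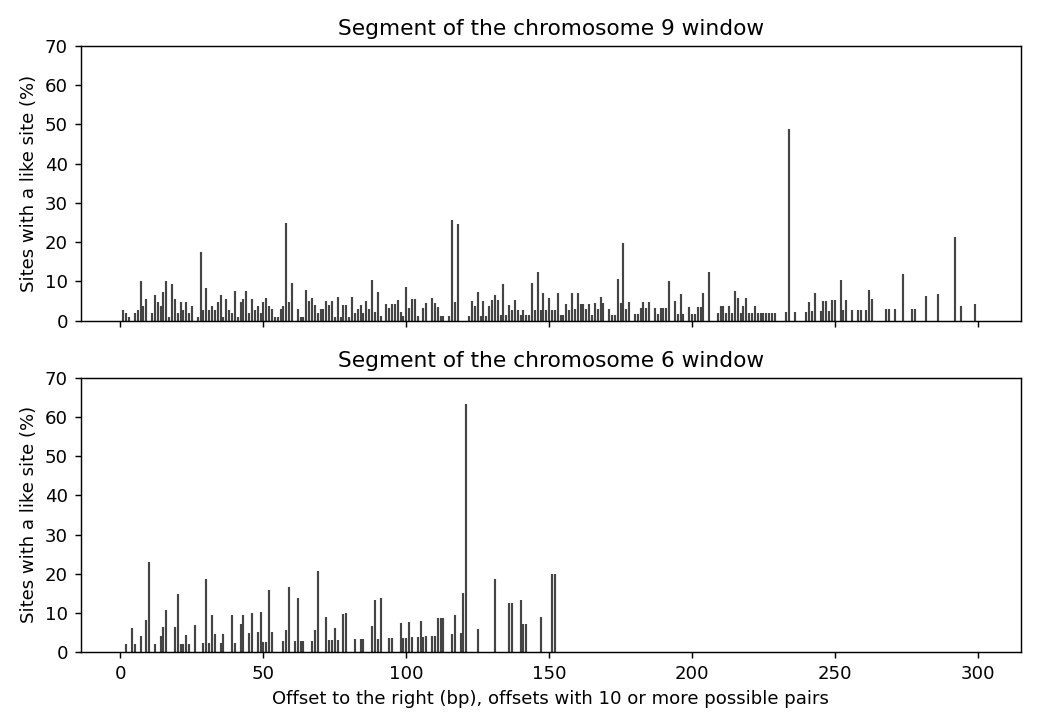
Percent of sites with the same dinucleotide on the same strand at each offset to the right in bp, among the sites whose partner would lie within the segment, for the chromosome 9 segment (top) and the chromosome 6 segment (bottom). The tallest lines are at 234 bp (48.9%) and at 121 bp (63.2%).

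Sites with the same letters in the 2 units did not carry the same reads. On chromosome 9 the 23 pairs at 234 bp differed by a median of 2.08-fold, 6 of them by more than 3-fold, and the right site was higher in 11 of 23. The pairs are not all separate, as sites of class 2CH often have equal counts on opposite strands. The counts of 1104 and 330 reads are among the 6 once for each strand, from 35112861 and from 35112884. The plus-strand CG at 35112845 had 4895 reads and its counterpart at 35113079 had 2376. The minus-strand CA at 35112905 and its counterpart at 35113139 both had 222.

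On chromosome 6 the 12 pairs at 121 bp differed by a median of 19.9-fold, all 12 by more than 3-fold, and the right site was higher in 11. The CG at 103599049 had 319 reads and its counterpart at 103599170 had 32783, or 102.8 times as many. The CA at 103599086 had 21 reads against 6373 at 103599207. The exception was the CT at 103599064, with 49 reads against 2 at 103599185. The 2 units of chromosome 6 were therefore further apart in reads than those of chromosome 9, over few pairs and with no replicate error.

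**Figure D4:**
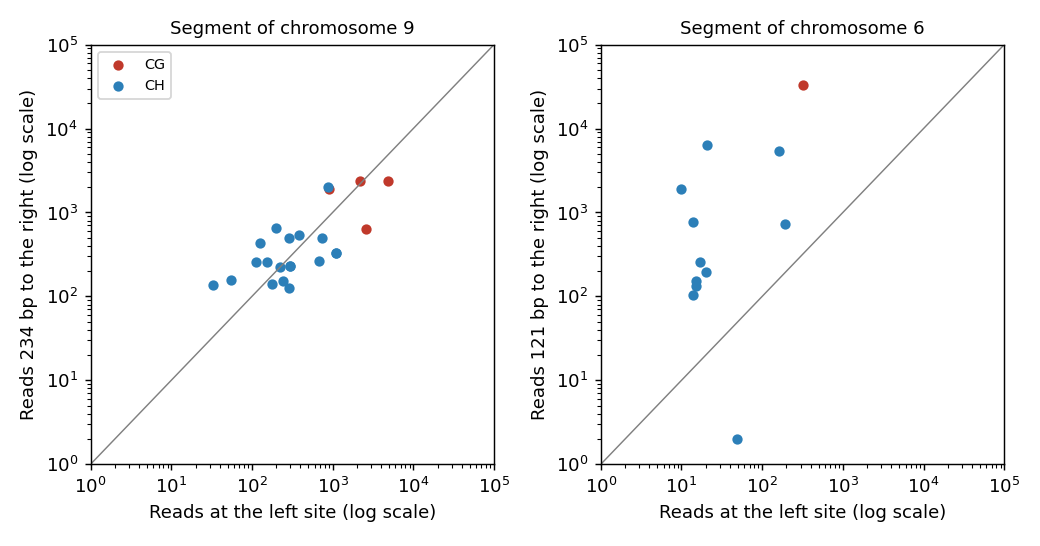
Reads at a site and at the site with the same dinucleotide and strand one unit to the right, both on log scales, for 23 pairs at 234 bp in the chromosome 9 segment (left) and 12 pairs at 121 bp in the chromosome 6 segment (right); red points are CG, blue points CH, and the line marks equal reads. The chromosome 9 pairs lie on both sides of the line, and 11 of the 12 chromosome 6 pairs lie above it.

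The pattern of the chromosome 9 segment was found again in the chromosome 2 window and in the first window of chromosome 9. The first window of chromosome 11 had 259466 reads, but no place on that chromosome matched more than 10 of the sites. Each placement was scored by how many of the segment's 109 sites were listed there with the same dinucleotide and strand. A matched site brings equal letters, so the counts of equal letters given with placements are not separate from this score. Apart from its own position, 69 placements reached 20 sites. Of these 22 began in the chromosome 2 window and 36 overlapped the first window of chromosome 9, all 36 in reverse orientation. Another 8 were the segment shifted on itself and 3 lay elsewhere. Many placements overlap each other, shifted by a unit. The best, at chromosome 2 from 98506779, matched 83 of 109 sites, and 145 of 158 bases known in both were the same. The best that overlapped the first window of chromosome 9 began at 2999884 and matched 51, with 95 of 106 letters the same. It began ahead of that window, the first with listed sites, so part of the pattern could not match there.

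Of the 3 placements elsewhere, the one on chromosome 12 at 3109823 and the one on chromosome 4 at 70038938 matched 27 sites each, with 58 of 64 and 47 of 51 letters the same. On all other chromosomes, mitochondrial DNA included, the best placement matched 16 sites or fewer.

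The chromosome 6 segment had 6 placements of 20 or more of its 50 sites, 5 of them in the chromosome 2 window and 1 on X. The best, at chromosome 2 from 98506426, matched 35 sites, with 62 of 70 letters the same. On X, from 139917476, 26 sites matched, with 44 of 46 letters the same. All other chromosomes reached 11 or fewer, and mitochondrial DNA 10. The best placement of this pattern at the chromosome 9 segment matched 11 of 50. By this score the 2 segments each had a better match in the chromosome 2 window than at each other. The score depends on how many sites are listed at a place, and no count of equal letters between the segments is given. The chromosome 2 window itself had CH at 79.8% of its 721 sites. In the first windows of chromosomes 9 and 11 the share was 80.2% and 77.5%. The segments, far shorter than these windows, had 84.4% and 90.0%. By reads the CH share of the 3 windows was 34.8%, 58.5% and 22.7%, against 53.6% and 42.0% in the segments.

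Reads at matched sites were alike only in part. Over the 83 sites shared by the chromosome 9 segment and its best place in the chromosome 2 window, the counts had a Spearman correlation of 0.52. At the 22 places in that window it ran from -0.17 to 0.55. At the 36 places that overlapped the first window of chromosome 9 it ran from -0.039 to 0.85. The best of those by matched sites had 0.32 over 51 sites, and the highest value was over 31 sites. This is a description: the sites share letters, libraries and processing. Of the 83 pairs, 0 had equal counts and 40 were higher on chromosome 9. The minus-strand CA at 35112955 had 10200 reads against 73 at 98506949, while the CG at 35113020 had 7733 against 24074 at 98507014.

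For the chromosome 6 segment the correlation differed in sign between the 5 places in the chromosome 2 window. It was -0.28 over 35 sites at the best place, from 98506426, and 0.55 over 28 sites at the next, from 98502718. On X it was 0.51 over 26 sites. Its highest site, at 103599170, had 32783 reads. At the 3 places of the chromosome 2 window in the same orientation, its counterparts had 173 at 98506550, 5351 at 98502842 and 2094 at 98502722. The counts at the 2 reverse places are not given here. Its counterpart on X had 377 at 139917600. On X the minus strand of that CG had 7996 reads, so the strand with more reads was the opposite one. The same held at 98502723 in the chromosome 2 window, with 12436 reads on the minus strand. At 98506551 and 98502843 the minus strand had 13 and 2600 reads, fewer than the plus strand. The labels do not tell how reads that fit several of these places were assigned, and the part of that step in these counts was not tested.

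**Figure D5:**
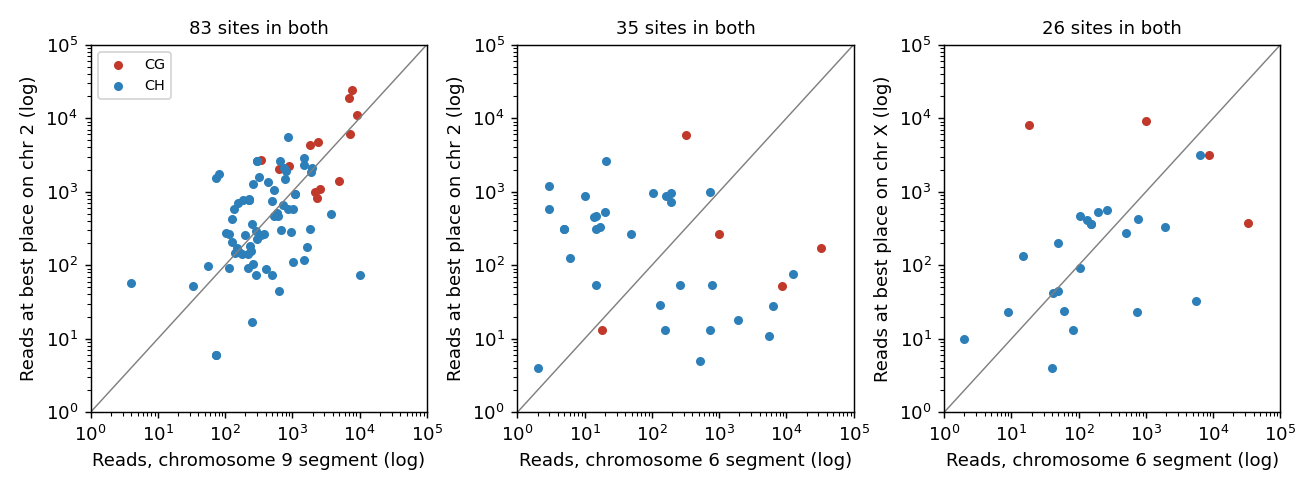
Reads at a site of the segment (horizontal, log scale) and at the matched site of another place (vertical, log scale): the chromosome 9 segment against its best place on chromosome 2 (left, 83 sites), and the chromosome 6 segment against chromosome 2 (middle, 35 sites) and X (right, 26 sites). Red points are CG, blue points CH, and the line marks equal reads; the highest site of chromosome 6 (32783 reads) lies far below the line in both panels.

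Pairs on opposite strands were also compared. AbaSI cuts between 2 modified cytosines leave sites 21 to 25 bp apart, and the table lists such pairs mostly in the classes 2CG and 2CH with equal counts. In the flanks of chromosome 9, 133 of 150 plus-strand sites of these classes had a partner, and 121 of 135 pairs had equal reads. In the chromosome 9 segment 12 of 15 had one, but 9 of 20 pairs had equal reads. Some of these sites had more than 1 partner in range, as 12 sites made 20 pairs, against 133 sites and 135 pairs in the flanks. The shares of equal pairs are thus not a like measure, and the part of that in the count was not tested. Outside these classes 8 of 25 plus-strand sites of the segment had a partner at that distance, against 17 of 1264 in the flanks and 0 of 257 in the rest of the window. In the chromosome 6 segment it was 5 of 24, against 2 of 248 in the flanks. Sites were also packed more closely in the segments, as given above, and the part of that packing in these shares was not tested.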

How the data were processed

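Read counts at single cytosines were measured in 2 AbaSI libraries of E14 DNA. Per the labels' protocols, each library took 100 ng of DNA. The submitters' processing notes name CASAVA 1.8.2, Bowtie and the build mm9. The deposited table gives 1 whole-number read count per listed cytosine for both libraries together, unscaled. Read filters, the handling of PCR copies and of reads that align to several places, the rule giving reads to cytosines and the minimum for listing are not stated in the labels. With libraries pooled, replicate error was out of reach and no test was made.

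Depth was 176006227 reads over 13025343 sites, and the lowest count was 2. Positions are 1-based. Shares have exact Clopper-Pearson intervals at 95%, which cover counting error only, since PCR copies are not independent molecules. A segment is the run of sites of 100 or more reads, each within 100 bp of the next, that holds the most reads. Letters were taken from the listed dinucleotides. Each segment's pattern was laid over every position of the table in both orientations, and placements with 20 or more matched sites were kept. The named sites were the 10 with the most reads in each window, and the named bins the 3 of 1 kb with the most reads, with the top site and bin of the flanks. The members, the segments and the measures were chosen with earlier results of these data known. Functions were tested on simulated data. Tables were computed in pandas 2.3.3 and numpy 2.4.6, intervals in scipy 1.17.1 and figures in matplotlib 3.10.9, under Python 3.11.15. The RefSeq gene, promoter and miRNA tables are of another build and were not used here. Alternatives were other minimum counts, weights, flanks, bins and shifts, and top sites or the segment left out.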

Additional observations from a re-analysis of the deposited data

How the results depend on the processing

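Of 84 alternatives for 16 results, 24 stayed within the counting interval and 60 moved. Of the moved values 24 changed by over 1.5 times. The cause was not tested beyond what each alternative removes by construction. Values are given for chromosome 9 first and chromosome 6 second. The ratio to the flanks was 15.7 and 68.6 with a minimum of 5 reads, 19.2 and 113.5 with 10, 15.5 and 68.6 with a weight of 0.5 for 2CG and 2CH, 13.8 and 34.2 without the top site, 9.94 and 7.43 without the top 5 sites, and 0.938 and 1.13 with each site counted once. With flanks of 100 kb it was 17.2 and 70.3 and with 500 kb 21.3 and 72.6. Windows moved 50 kb left gave 15.7 and 0.0577 and moved right 0.204 and 63.3, as the segment then lies inside the window or its flank. The CH share of sites was 30.4% and 58.7% with a minimum of 10 reads and 13.1% and 27.0% without 2CH. The CH share of reads was 48.9% and 41.1% with the weight of 0.5, 51.9% on chromosome 9 with 10 reads, 47.2% and 74.1% without the top site and 54.0% and 76.1% without the top 5. The share on the top 5 sites was 35.6% and 88.9% with the weight and 34.2% and 88.3% with 10 reads. The share in the top bin was 57.6% and 99.1% with the weight, 95.3% and 99.2% in bins of 5 kb, and 53.3% and 97.9% without the top site. Dyads on both strands fell to 31.4% and 23.9% on chromosome 9 with 5 and 10 reads. The plus-strand share of reads was 40.0% and 50.1% without the top site and 45.2% and 75.9% without the top 5.

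Leaving out the segment and the other definitions of it were alternatives chosen after seeing the data. Without the segment, the ratio was 0.719 and 0.779, the CH share of sites 7.57% and 18.8%, the CH share of reads 6.34% and 10.6%, the top 5 sites 9.91% and 30.8%, the top bin 8.72% and 25.4%, and the plus-strand share 48.8% and 49.3%. The segment held 96.5% of the chromosome 6 reads when built from sites of 200 reads, and the other 7 settings left its share unchanged. Built in that way, the chromosome 6 segment ran only from 103599160 to 103599238. It then left out the left sites of the 12 pairs at 121 bp, so its length and those pairs depend on the setting. The table pools the libraries, so no fit without a replicate was possible. The counts carry PCR copies, and a site without a line has an unknown count.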

Other observations

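Runs of sites like the 2 segments were rare in the table. On the autosomes and X, 23887 runs of sites of 100 or more reads, each within 100 bp of the next, were found, with a median length of 23 bp. Of these 34 held at least 10 such sites, and in 31 of the 34 more than 50% of the listed sites were CH. By reads, the segments of chromosomes 9 and 6 ranked 3 and 4, after 2 runs of the chromosome 2 window with 2572001 and 512131 reads. Chromosome 9 held 18 of the 31, the others all near its start, chromosomes 2 and 11 held 4 each, and chromosomes 6, 8, 12, 15 and X 1 each. The run on X, from 139917574 to 139917662, had 43013 reads on 33 sites and overlaps the place that shares letters with the chromosome 6 segment. The run on chromosome 12, from 3109983 to 3110115, had 26950 reads on 35 sites and overlaps a place that shares letters with the chromosome 9 segment.

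A run on chromosome 15, from 74916917 to 74917370, had 37214 reads on 129 sites with CH at 89.1%. The best placement of the chromosome 9 pattern on that chromosome matched 12 of 109 sites and that of the chromosome 6 pattern 9 of 50, within the range of chromosomes without such a run.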
